A study of Mus musculus with 11 samples.

Results

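The Bcl2 family apoptosis regulators described here are 9 of the 20893 genes in a deposited table of mouse liver bulk RNA-seq, chosen by gene symbol. They are the pro-survival genes Bcl2, Bcl2l1 and Mcl1, the effectors Bax and Bak1, and the BH3-only genes Bcl2l11, Bbc3, Pmaip1 and Bid. All 9 had a row in the table, and all 9 passed the filter on low values (at least 0.5 eRPKM in at least 3 libraries), as did 14244 genes in all. The livers came from C57BL/6 mice of an inducible model (alb-CRE, R26-lsl-rtTA and tet-YAP combined), in which Cre driven by the albumin promoter switches on rtTA from the ROSA26 locus in the hepatocyte lineage, and rtTA with doxycycline drives the transgene YAP S127A, a constitutively active mutant of YAP, the transcriptional co-activator that the Hippo pathway restrains. The 4 controls have the genotype ROSA26-rtTA-IRES-EGFP; WT, so they share the rtTA allele but lack the transgene, and were fed doxycycline for 7 days. The induced mice have the genotype ROSA26-rtTA-IRES-EGFP; tetYAP, and were fed doxycycline for 3 days (4 livers) or 7 days (3 livers). The 3-day group thus differs from its controls in days of doxycycline as well as in the transgene, and these cannot be told apart. The age of the mice, and whether the controls carry the Cre, are not given in the sources used here.

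Proteins of this family decide whether the outer mitochondrial membrane is permeabilised. Bcl2, Bcl-xL (the product of Bcl2l1) and Mcl1 bind and hold back their pro-apoptotic relatives. Bax and Bak form the pores that release cytochrome c, and the BH3-only proteins Bim (Bcl2l11), Puma (Bbc3), Noxa (Pmaip1) and Bid neutralise the pro-survival members or activate the effectors directly. Hepatocytes are known to depend on Bcl-xL and Mcl1 for survival, and they use Bid to pass death receptor signals to mitochondria. Much of the control of these proteins lies beyond transcript levels, which are all that was measured here.

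YAP reaches DNA through TEAD factors, whose core letters are GGAATG. Seen from the opposite strand they read CATTCC. Both forms were searched in the 250 bases before each start in RefSeq (GRCm38.p6), with positions given on mm9 by exact match. Of the 9 members, 8 had at least 1 promoter in that table, and Pmaip1 did not match. The letters occurred in 2 of the 13 member promoters, 1 of Bcl2l1 and the only one of Mcl1, and so in 2 of 8 members (25%). Over all tested genes they occurred in 1524 of 13744 promoters (11.1%) and in 1425 of 10840 genes (13.1%), and a count of 2 among 8 is too small to set against those shares. A match describes letters in a window, not a bound site. The 2 promoters with the letters (in capitals) are shown with those of Bcl2 and Bax, a pro-survival gene and an effector that rose after 7 days and have none in this window. They lie at chr2:152657465-152657714 (minus strand, Bcl2l1), chr3:95462393-95462642 (plus strand, Mcl1), chr1:108610868-108611117 (minus strand, Bcl2) and chr7:52722269-52722518 (minus strand, Bax), each read 5′ to 3′ towards the gene.
Bcl2l1: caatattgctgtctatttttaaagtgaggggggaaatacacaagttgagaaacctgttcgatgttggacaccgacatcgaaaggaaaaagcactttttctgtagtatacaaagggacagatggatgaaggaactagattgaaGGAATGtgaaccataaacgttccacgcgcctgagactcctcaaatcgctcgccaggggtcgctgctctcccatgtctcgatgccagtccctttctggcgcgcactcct
Mcl1: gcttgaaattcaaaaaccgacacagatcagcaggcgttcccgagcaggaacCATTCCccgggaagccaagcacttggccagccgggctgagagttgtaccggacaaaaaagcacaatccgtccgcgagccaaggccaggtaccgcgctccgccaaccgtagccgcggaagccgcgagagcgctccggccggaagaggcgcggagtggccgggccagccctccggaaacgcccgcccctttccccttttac
Bcl2: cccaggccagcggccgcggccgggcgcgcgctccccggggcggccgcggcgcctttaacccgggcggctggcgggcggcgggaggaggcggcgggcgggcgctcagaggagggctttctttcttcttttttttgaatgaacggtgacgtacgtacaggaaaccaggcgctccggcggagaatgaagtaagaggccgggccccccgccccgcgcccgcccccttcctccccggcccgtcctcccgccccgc
Bax: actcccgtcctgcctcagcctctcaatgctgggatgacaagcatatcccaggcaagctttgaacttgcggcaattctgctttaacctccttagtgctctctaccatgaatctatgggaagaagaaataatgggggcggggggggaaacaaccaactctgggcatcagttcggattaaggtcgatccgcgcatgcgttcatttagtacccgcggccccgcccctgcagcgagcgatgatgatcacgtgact
Counted from the start, the capitals begin at -108 in Bcl2l1 and at -199 in Mcl1. The 4 windows differ widely in base composition. The Bcl2 window is 74.8% G and C, that of Mcl1 64.4%, that of Bax 54.0% and that of Bcl2l1 47.6%. The other 2 Bcl2l1 starts in the table lack the letters.

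Depth ran from 1251396 reads on genes (control 4) to 5941357 (7-day liver 2), and the median 7-day library (5356541) was deeper than the median 3-day (3652719) and control (3152456) library. Spearman correlations between livers of a group were at least 0.945 in controls, 0.922 at 3 days and 0.974 at 7 days. Yap1 itself lay within the control range (13.9 to 21.1 eRPKM) in all induced livers, and whether transgene reads fall on it is not known. Ctgf, a canonical YAP target, was at most 14.2 eRPKM in a control liver, at least 15.3 in a 3-day liver and at least 87.3 in a 7-day liver. By more Xist than Ddx3y, 2 controls, 2 of the 3-day livers and all 3 of the 7-day livers were female, which partly confounds sex with time. Replicates are numbered separately in the labels. Each limma p-value sets a group difference against the residual spread between these libraries, pooled over groups and moderated across genes.

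Livers with 7 days of YAP induction were compared with control livers to see how the family stood after tonic induction. Of the 9 members, 6 rose and 0 fell (limma, Benjamini-Hochberg adjusted p under 0.01 and absolute log2 fold change above 0.5), where 18.0% of all tested genes rose and 5.77% fell. The 6 were the pro-survival genes Bcl2, Bcl2l1 and Mcl1, the effectors Bax and Bak1, and the BH3-only gene Pmaip1. At an adjusted p under 0.05 with no fold limit 8 members had risen, Bcl2l11 being the exception, against 27.9% of tested genes, and all 9 had an unadjusted p under 0.05, against 47.3%. Bbc3, Bcl2l11 and Bid, the members without a call, had larger changes than the called Mcl1 but also larger errors, and no difference between the 3 roles was tested. In 8 of 9 members, Bbc3 being the exception, the 3 livers all stood above the 4 controls, as did 36.7% of tested genes. The median log2 fold change of the members was 1.46, against 0.26 over all tested genes. That general shift depends on scaling. It was 0.02 after median-ratio size factors and -0.08 after quantile normalization, while 2561 rises and 822 falls became 1945 and 1281, or 1857 and 1821. Under size factors 5 members rose (all 6 but Mcl1), and under quantile normalization the same 6 did. With log2 depth as a covariate 3 rose, namely Bcl2, Bax and Pmaip1. In RNA of whole liver, more cells of a type and more transcript per cell cannot be told apart.

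**Figure D1:**
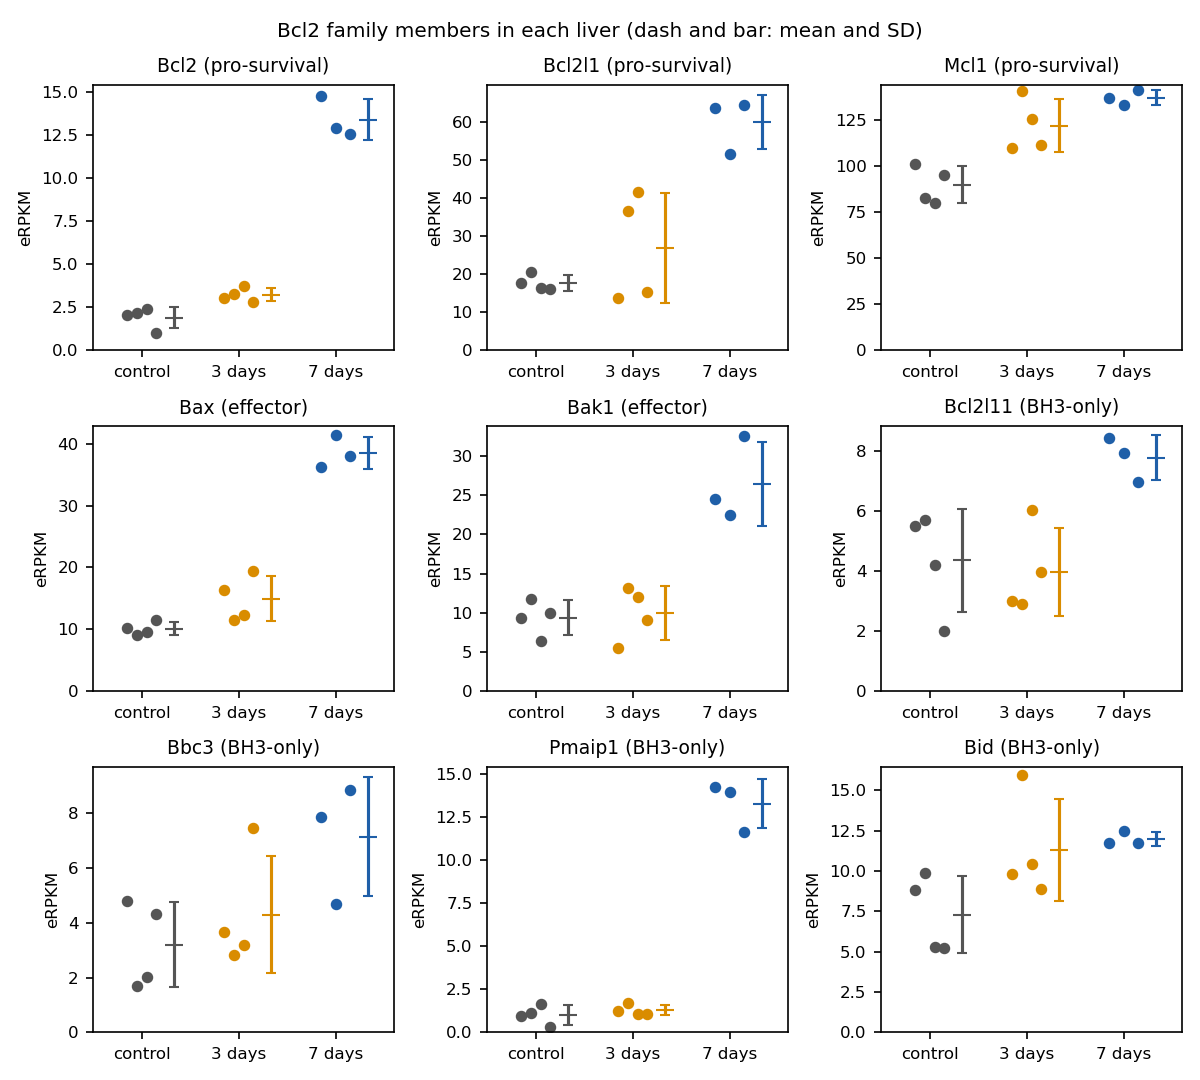
eRPKM (reads per kilobase of exon, scaled to library reads; linear axes from 0) of the 9 members in each of 11 livers, with the mean and SD of each group beside its points. Pmaip1 stays between 0.292 and 1.71 in the controls and 3-day livers and reaches 11.6 to 14.3 at 7 days, while the 3-day livers split for Bcl2l1.

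Bcl2 (chromosome 1, 108434755 to 108610851, minus strand, mm9), the founding pro-survival gene, was scarce in control livers, at 2.03, 2.16, 2.40 and 1.003 eRPKM in livers 1 to 4. The 3-day livers 1 to 4 had 3.06, 3.28, 3.71 and 2.83, and the 7-day livers 1 to 3 had 14.7, 12.9 and 12.5. The 3 groups did not overlap with each other. From a control mean of 1.90 ± 0.616 (SD, n = 4) it went to 13.4 ± 1.19 (SD, n = 3), a ratio of means of 7.04. On the log2(eRPKM + 0.5) scale used for every fold change here, the 7-day change was 2.57 (SE 0.25, limma adjusted p = 1.36e-05). Control 4 gave only 10 Bcl2 reads against 530 to 629 in the 7-day livers. Exons of D630008O14Rik overlap 7.8% of the Bcl2 exon length. Reads were aligned without strand information, and how reads in such overlaps were counted is not given in the sources used here.

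Bcl2l1 (chromosome 2, 152593052 to 152657464, minus strand), the gene of Bcl-xL, was the second most abundant member by mean level. Controls held 17.6, 20.8, 16.4 and 16.1 eRPKM, a narrow band. The 7-day livers held 63.8, 51.8 and 64.6, all above every other liver of the series. The 7-day change against control was 1.73 (SE 0.33, adjusted p = 0.00142), a ratio of means of 3.39. With log2 depth as a covariate it was 1.49 and lost its call (adjusted p = 0.0288).

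Mcl1 (chromosome 3, 95462643 to 95467099, plus strand), whose protein turns over fast, was the most abundant member in every liver. Its levels were 101, 82.6, 80.2 and 95.2 eRPKM in the controls, 110, 141, 126 and 111 at 3 days, and 137, 133 and 141 at 7 days. Both induced groups stood above all controls. The 7-day change was the smallest of the 6 called members, 0.61 (SE 0.14, adjusted p = 0.00485), from 89.8 ± 9.98 (SD, n = 4) to 137 ± 4.12 (SD, n = 3). The call was lost in 8 of 24 alternatives. Under size factors the change was 0.34 (adjusted p = 0.169), and leaving out control 2, control 3 or any 1 of the 7-day livers raised the adjusted p to between 0.0116 and 0.0268. Alb kept 1147 to 1473 reads per kilobase in every library despite their range of depth. Mcl1 had 119 to 790, and whether its reads level off with depth in these values was not tested.

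Bax (chromosome 7, 52717065 to 52722268, minus strand), a pore-forming effector and a known p53 target, had 10.2, 9.09, 9.63 and 11.6 eRPKM in the controls. At 7 days it had 36.2, 41.3 and 37.9, far above both other groups. The change was 1.88 (SE 0.19, adjusted p = 1.58e-05), from 10.1 ± 1.08 (SD, n = 4) to 38.5 ± 2.57 (SD, n = 3), and it kept its call in all 24 alternatives. Bak1 (chromosome 17, 27156755 to 27165954, minus strand), the other effector, had 9.36, 11.8, 6.38 and 9.98 in the controls and 24.4, 22.4 and 32.5 at 7 days. Its 7-day livers lay above all controls and all 3-day livers. The change was 1.46 (SE 0.28, adjusted p = 0.00155). Without 7-day liver 3, the highest, it was 1.31 with the call lost (adjusted p = 0.0119), as it was with log2 depth as a covariate (1.25, adjusted p = 0.0280). Exons of Ggnbp1 overlap 14.8% of the Bak1 exon length.

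Pmaip1, the gene of Noxa, a BH3-only protein that targets Mcl1 and a known p53 target, changed most. Controls had 0.938, 1.13, 1.67 and 0.292 eRPKM, resting on 1 to 17 reads, and the 3-day livers had 1.23, 1.71, 1.09 and 1.09, on 9 to 17 reads. The 7-day livers had 14.3, 14.0 and 11.6, on 169 to 227 reads. Controls and 3-day livers overlapped, and the 7-day livers stood clear of both. The 7-day change was 3.28 (SE 0.32, adjusted p = 1.24e-05), with a ratio of means of 13.2 that depends on few control reads. Between alternatives it ran from 2.85 to 3.78, always past the threshold.

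The other 3 BH3-only members did not pass at 7 days. Bcl2l11 (chromosome 2, 127951774 to 127988283, plus strand), the gene of Bim, had 5.52, 5.70, 4.21 and 2.0 eRPKM in the controls and 8.43, 7.95 and 6.97 at 7 days. These groups did not overlap, but the change of 0.85 (SE 0.33) had an adjusted p of 0.0601. Bbc3 (chromosome 7, 16894965 to 16903554, plus strand), the gene of Puma and a known p53 target, had 4.79, 1.70, 2.04 and 4.32 in the controls and 7.88, 4.71 and 8.88 at 7 days. Liver 2 of the 7-day group fell within the controls, and the change was 1.10 (SE 0.39, adjusted p = 0.0403), on 10 to 96 reads per liver. Bid (chromosome 6, 120841948 to 120866871, minus strand) had 8.80, 9.87, 5.28 and 5.24 in the controls and 11.7, 12.5 and 11.7 at 7 days. The 7-day livers were above all controls and nearly equal to each other, with a change of 0.73 (SE 0.26, adjusted p = 0.0404). Exons of Bcl2l13 on the opposite strand overlap 17.7% of the Bid exon length.

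**Figure D2:**
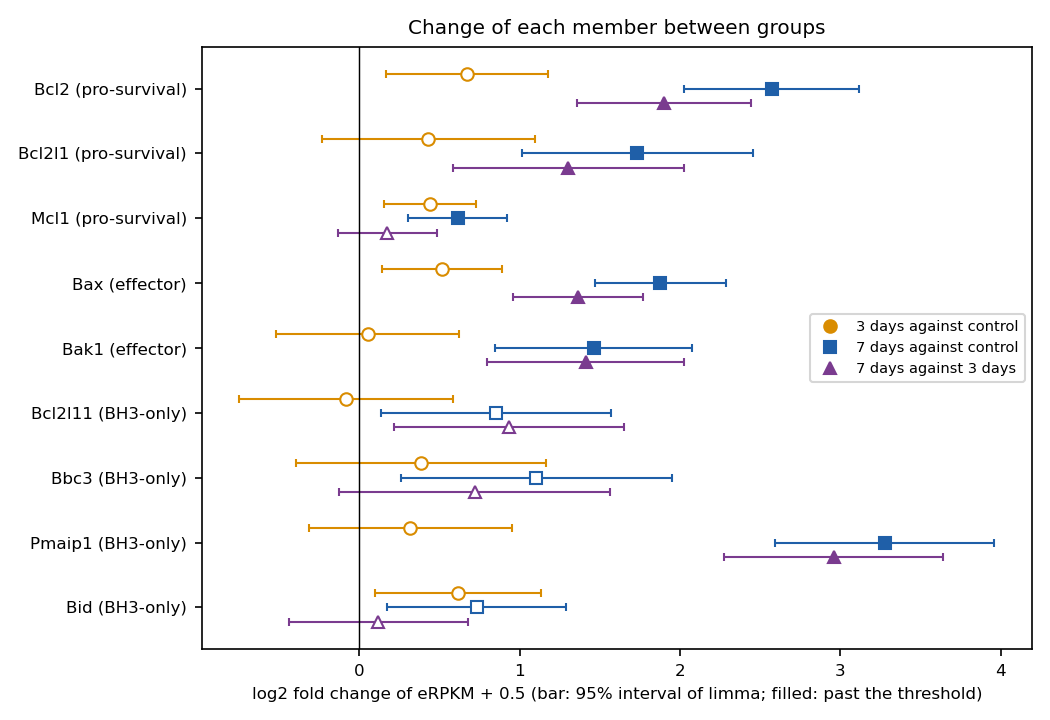
log2 fold change of eRPKM + 0.5 for each member in the 3 comparisons, with bars for the 95% interval of the limma fit and filled symbols for members past the threshold. At 7 days against control the values run from 0.61 (Mcl1) to 3.28 (Pmaip1) with 6 filled, while no symbol is filled at 3 days.

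Livers with 3 days of induction were compared with controls to see the family after acute induction. At 3 days 0 of 9 members passed the limma test, and the same count of 0 was found under each of the 24 alternatives, limma-voom on recovered reads included. Over all genes 6 of 14244 passed (0.0421%), so few genes of any kind were called. At an unadjusted p under 0.05, 4 members were past (Mcl1, Bax, Bcl2 and Bid), as were 1718 of all tested genes. In 2 of 9 members, Bcl2 and Mcl1, all 3-day livers stood above all controls, against 3.38% of tested genes. The members' median log2 fold change was 0.43, against 0.02 over all genes.

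For Bcl2 the 3-day change was 0.67 (SE 0.23, adjusted p = 0.266) and for Mcl1 0.44 (SE 0.13, adjusted p = 0.191). Bax had 16.3, 11.6, 12.4 and 19.5 eRPKM in the 3-day livers, of which 3 lay above all controls and liver 2 just within them (0.51, SE 0.17, adjusted p = 0.251). Bid had 9.83, 15.9, 10.5 and 8.89, with 2 livers above all controls and 2 within their range (0.61, SE 0.24, adjusted p = 0.323). The 95% interval of Bid ran from 0.09 to 1.13, so changes from near 0 to past 2-fold lie within it. Bbc3 had 3.69, 2.84, 3.202 and 7.47, with only liver 4 above the controls (0.38, SE 0.36, adjusted p = 0.706). Bcl2l11, at 3.00, 2.90, 6.05 and 3.97, overlapped the controls widely. Its change was -0.08 (95% interval -0.75 to 0.58, adjusted p = 0.940), and its sign turned when any of 4 livers was left out. Pmaip1 differed from control by 0.32 (95% interval -0.31 to 0.95, adjusted p = 0.700).

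Bcl2l1 and Bak1 split the 3-day livers. Bcl2l1 had 13.9, 36.7, 41.8 and 15.3 eRPKM in livers 1 to 4, so that livers 2 and 3 stood above every control and livers 1 and 4 below every control. Its mean change of 0.43 (SE 0.31, adjusted p = 0.601) describes neither pair. Bak1 had 5.58, 13.2, 12.0 and 9.12, again with livers 2 and 3 the highest, and a change of 0.05 (SE 0.26, adjusted p = 0.960). Livers 1 and 4 carry a suffix MF in their labels, whose meaning is not given, as does 7-day liver 2, the lowest of its group for both genes, and no control. With the suffix as a covariate the 3-day change was 0.91 for Bcl2l1 (adjusted p = 0.0720) and 0.35 for Bak1 (adjusted p = 0.624). The proliferation marker Mki67 stood at 2.39, 22.7, 37.2 and 8.24 eRPKM in the same livers, and the sum of 5 markers of dividing cells at 16.2, 75.4, 112 and 45.3. By Xist and Ddx3y, 3-day livers 3 and 4 were female. The part of the suffix, of sex and of dividing cells in these levels was not tested.

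The 7-day livers were then compared with the 3-day livers directly. Of 9 members 5 rose and 0 fell (Bcl2, Bcl2l1, Bax, Bak1 and Pmaip1), where 14.0% of tested genes rose and 5.31% fell. In 6 of 9 members the 7-day livers all stood above the 3-day livers, against 31.3% of tested genes, with Bcl2l11 as the member added. The median was 1.30, against 0.26 over all genes. Pmaip1 stood 2.96 higher (SE 0.32, adjusted p = 3.26e-05) and Bcl2 1.90 higher (SE 0.25, adjusted p = 0.000139). Bax stood 1.36 higher (SE 0.19, adjusted p = 0.000177) and Bak1 1.41 higher (SE 0.28, adjusted p = 0.00249).

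The Bcl2l1 step from 3 to 7 days, 1.30 (SE 0.33, adjusted p = 0.00965), lay just past the threshold and lost its call in 16 of 24 alternatives, with adjusted p up to 0.0571. Leaving out any library other than 3-day liver 2 or 3 was enough to lose it, at adjusted p from 0.0128 to 0.0406. The Bak1 step lost its call without 7-day liver 3 (1.26, adjusted p = 0.0181), among female livers only (1.28, adjusted p = 0.0135) and with log2 depth as a covariate (1.25, adjusted p = 0.0180). Bcl2l11 differed by 0.93 (SE 0.33, adjusted p = 0.0436) and Bbc3 by 0.72 (SE 0.39, adjusted p = 0.165), neither past the threshold. Mcl1 and Bid showed the least difference between the induced groups. Mcl1 differed by 0.17 (95% interval -0.13 to 0.48, adjusted p = 0.358), which turned to -0.07 under size factors and became a called 0.69 under quantile normalization (adjusted p = 0.00332). Bid differed by 0.12 (95% interval -0.44 to 0.68, adjusted p = 0.742), which turned negative under both scalings.

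eRPKM is scaled per length, so levels can be set beside each other within a liver. In controls the order of mean levels was Mcl1, Bcl2l1, Bax, Bak1, Bid, Bcl2l11, Bbc3, Bcl2 and Pmaip1. Only the steps from Mcl1 to Bcl2l1 and from Bcl2l1 to Bax separated neighbours without overlap between livers, and each later neighbour overlapped the next. At 7 days the order was Mcl1, Bcl2l1, Bax, Bak1, Bcl2, Pmaip1, Bid, Bcl2l11 and Bbc3. There the first 4 genes separated from each other and from the rest, and the overlaps were between Bcl2 and Pmaip1, Pmaip1 and Bid, and Bcl2l11 and Bbc3. Bcl2 thus moved from place 8 to place 5 and Pmaip1 from place 9 to place 6.

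Summed over Bcl2, Bcl2l1 and Mcl1, the pro-survival level was 121, 106, 98.97 and 112 eRPKM in the controls, 127, 181, 171 and 129 at 3 days, and 216, 198 and 218 at 7 days. Summed over Bax and Bak1, the effector level was 19.6, 20.9, 16.0 and 21.6 in the controls, 21.9, 24.8, 24.4 and 28.6 at 3 days, and 60.7, 63.7 and 70.5 at 7 days. Each sum was higher in every 7-day liver than in any other. The 4 BH3-only members together had 11.8 to 20.04, 17.8 to 23.4 and 39.1 to 42.3 in control, 3-day and 7-day livers. All these sums leave out other family genes. Among those, the BH3-only genes Bmf, Bad and Bik had means of 16.7, 10.2 and 6.76 eRPKM in controls and 3.93, 16.3 and 3.79 at 7 days. The pro-survival gene Bcl2l2 had means of 16.5 in controls and 19.9 at 7 days.

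The ratio of the summed pro-survival members to the summed effector members, other family genes left out, was lower at 7 days than in any other liver. It was 6.16, 5.06, 6.18 and 5.21 in the controls, 5.79, 7.29, 7.02 and 4.52 at 3 days, and 3.55, 3.10 and 3.10 at 7 days. The means were 5.65 ± 0.601 (SD, n = 4), 6.15 ± 1.27 (SD, n = 4) and 3.25 ± 0.261 (SD, n = 3). This ratio needs no scaling between libraries, but it may still depend on depth. Mcl1, the largest part of the pro-survival sum, had 119 to 454 reads per kilobase in controls and 733 to 790 at 7 days. Alb, with 1147 to 1473 reads per kilobase, hardly followed depth. Whether Mcl1 levels off with depth was not tested, so the part of depth in the ratio is not known. Levelling of Mcl1 in the deeper libraries would lower the ratio there. The ratio is a description and was given no test, and it says nothing of protein.

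Within the pro-survival sum Mcl1 made up 78.3 to 84.8, 73.4 to 86.6 and 63.5 to 67.3% in control, 3-day and 7-day livers. The share of Bcl2l1 was 14.4 to 19.7, 10.9 to 24.4 and 26.2 to 29.6% in control, 3-day and 7-day livers. That of Bcl2 was 0.892 to 2.42%, 1.82 to 2.41% and 5.73 to 6.83%. Among the BH3-only members, other family genes left out, Bid held 40.0 to 53.6% of the level in controls and 27.7 to 32.0% at 7 days. Pmaip1 held 2.47 to 12.7% and 29.7 to 35.7%. For each of these shares every 7-day liver lay outside the range of the controls. Whether Mcl1, as a very abundant transcript, levels off with depth was not tested, and the pro-survival shares carry that limit. Such levelling would lower its share in the deeper libraries.

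**Figure D3:**
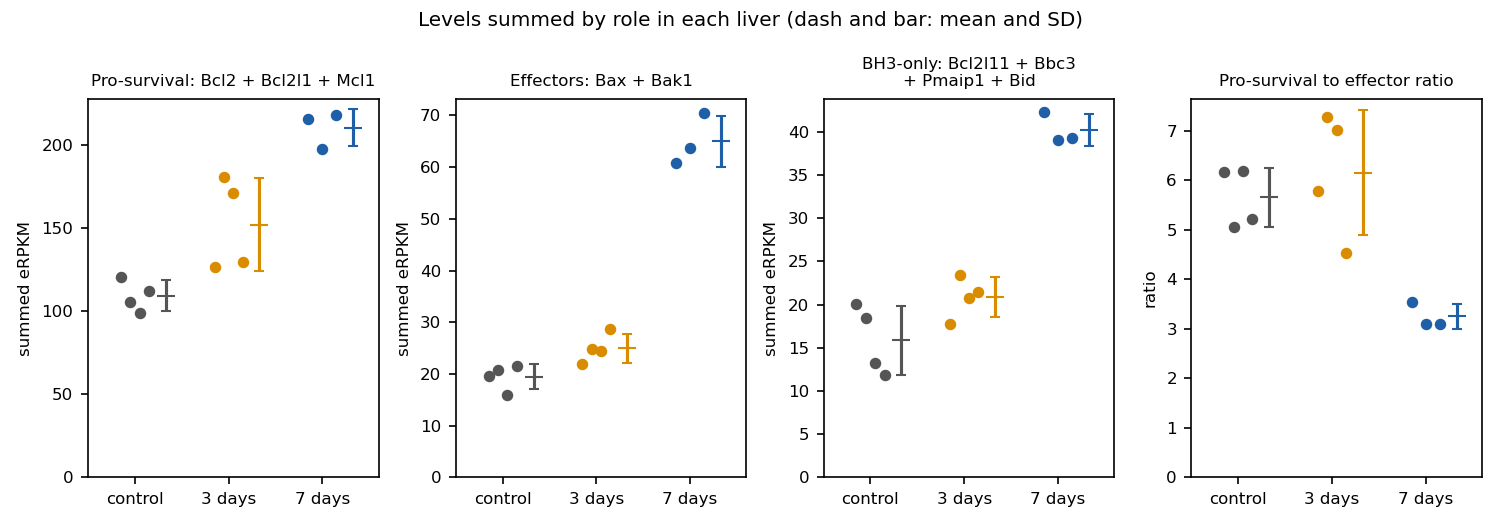
Summed eRPKM of the pro-survival, effector and BH3-only members and the ratio of the first to the second, 1 point per liver with group mean and SD on linear axes from 0. Each sum is highest in the 3 livers of the 7-day group, and their ratio of 3.10 to 3.55 lies below the 4.52 to 7.29 of all other livers.

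Of 14 other Bcl2 family genes in the table, 11 passed the filter, and Bcl2l10, Hrk and Bcl2l14 did not. At 7 days 1 rose and 1 fell against control, where 18.0% of all tested genes rose and 5.77% fell. The median log2 fold change was 0.37. At 3 days against control, and at 7 against 3 days, 0 passed by limma, with 1 and 5 of the 11 at an unadjusted p under 0.05, against 12.1% and 46.2% of all tested genes. Bmf, a BH3-only gene that responds to loss of cell attachment, fell. It had 24.2, 16.3, 14.9 and 11.6 eRPKM in the controls, 11.8, 7.04, 6.67 and 7.70 at 3 days, and 2.70, 6.09 and 2.99 at 7 days. The 7-day livers lay below both other groups, with a change of -1.99 (SE 0.31, adjusted p = 0.000320) that held in all 24 alternatives. At 3 days Bmf differed from control by -0.95 (SE 0.29, adjusted p = 0.187), with 3 of 4 livers below all controls. None of the 9 members fell in any comparison.

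Bcl2l12 had 2.76 to 5.50 eRPKM in the controls and 9.34 to 11.8 at 7 days, and rose by 1.14 (SE 0.28, adjusted p = 0.00721). That call was lost in 10 of 24 alternatives, among them both other scalings, each 7-day liver left out, and control 1 or 4 left out. Exons of Gm15545 and Irf3 overlap 33.4% of its exon length. The near-identical paralogs Bcl2a1a, Bcl2a1b and Bcl2a1d, pro-survival genes of blood cells, may share reads and are uncertain, and exons of Mthfs overlap 49.1% of the Bcl2a1b exon length. Their 7-day changes were 1.07 (adjusted p = 0.0528), 2.45 (adjusted p = 0.0118) and 1.11 (adjusted p = 0.0417), with at most 57 reads in a liver. Bcl2l2 (Bcl-w), the pro-survival gene with a level near that of Bcl2l1 in controls, had 13.7 to 19.2 in the controls and 19.4 to 20.2 at 7 days (0.27, SE 0.17, adjusted p = 0.217). The others did not pass either. Bad differed by 0.68 (adjusted p = 0.0699), Bok by 0.37 (adjusted p = 0.545), Bik by -0.72 (adjusted p = 0.114), Bcl2l13 by -0.11 (adjusted p = 0.647) and Bcl2l15 by -0.04 (adjusted p = 0.963).

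**Figure D4:**
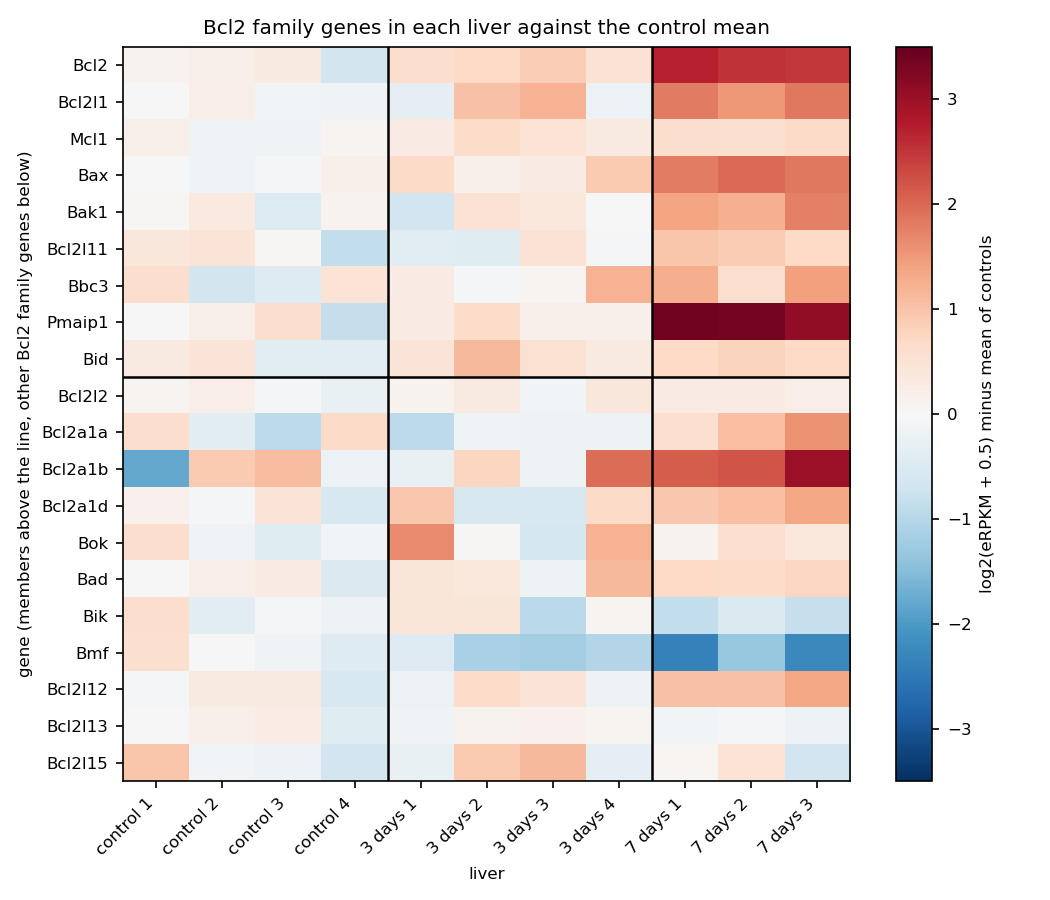
Difference of log2(eRPKM + 0.5) from the mean of the 4 controls for the 9 members (above the line) and 11 other Bcl2 family genes (below it), columns being the 11 livers. In the 7-day columns Pmaip1, Bcl2 and Bcl2a1b are red (3.28, 2.57 and 2.45 over the 3 livers) and Bmf is blue (-1.99), and 3-day livers 2 and 3 differ from livers 1 and 4 for Bcl2l1.

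Genes of the steps around the family were counted from fixed lists. Of 13 apoptosome and caspase genes, all tested, 4 rose and 1 fell at 7 days, against 18.0% and 5.77% of all tested genes. The largest rise was in Htra2, a mitochondrial protease that counters inhibitors of apoptosis, from 3.93 to 6.60 eRPKM in the controls to 19.5 to 25.1 at 7 days (2.03, SE 0.23, adjusted p = 3.6e-05). Exons of Loxl3 and Aup1 overlap 36.1% of its exon length. The fall was in Casp6, an executioner caspase, from 18.7 to 31.5 down to 8.34 to 11.5 (-1.38, SE 0.28, adjusted p = 0.00194). Apaf1, the scaffold of the apoptosome, rose by 1.71 (limma adjusted p = 0.000125), Casp2 by 1.70 (adjusted p = 4.18e-05) and Dffa by 0.76 (adjusted p = 0.00719). These 3 genes lie outside the naming rule and were named after their calls were seen. The list's median of 0.17 lay under the 0.26 of all tested genes.

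At 7 days against control 18.0% of all tested genes rose and 5.77% fell, to be read beside each list here. Of 5 inhibitor of apoptosis genes 1 rose and 0 fell at 7 days (median 0.36). It was Birc5 (survivin), which also acts in cell division, from 1.18 to 3.06 eRPKM in the controls to 9.63 to 12.5 (2.23, SE 0.44, adjusted p = 0.00177). Of 9 death receptor genes 0 rose and 0 fell by limma at 7 days against control (median 0.30). An unadjusted p under 0.05 was reached by 5 of the 9, near the 47.3% of all tested genes, with Tnfrsf10b at 0.85 (adjusted p = 0.0133) and Tnfrsf1a at 0.48 (adjusted p = 0.0272), named after their values were seen. Of 11 regulators of member transcription and turnover 10 were tested, and 3 rose (median 0.37). E2f1 went from 1.77 to 2.72 eRPKM in the controls to 27.3 to 29.6 (3.45, SE 0.34, adjusted p = 1.55e-05), Trp53 rose by 1.39 (adjusted p = 0.00703) and Mdm2 by 0.95 (adjusted p = 0.00142). Huwe1, Usp9x and Fbxw7, which act on the turnover of Mcl1 protein, differed by -0.01, -0.47 and 0.33, none past the threshold. These 5 genes other than E2f1 lie outside the naming rule and were named after their values were seen. At 3 days no gene of these 4 lists passed by limma, and an unadjusted p under 0.05 was reached by 1 of the apoptosome and caspase genes, 2 of the inhibitors, 1 of the death receptor genes and 2 of the regulators, where 12.1% of all tested genes reached it. At 7 against 3 days the apoptosome and caspase list had 3 rises and 2 falls, and the inhibitors 1 fall. The death receptor list had 2 rises and the regulators 2 rises. Of all tested genes 14.0% rose and 5.31% fell in that comparison.

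Whole liver holds several cell types, whose markers were summed from fixed lists. Of all tested genes 18.0% rose and 5.77% fell at 7 days against control, to be read beside the counts of markers. Hepatocyte markers were abundant in every library, with a summed level of 1031 to 3234, 1271 to 1720 and 866 to 958 eRPKM in control, 3-day and 7-day livers, and 1 of 5 passed as a fall (Ttr). Their reads hardly followed depth, at 2417 to 3102 for Alb and 15219 to 20940 for Apob in libraries of 1251396 to 5941357 reads. The sum was highest in control 4, the shallowest library, and the 7-day libraries were among the deepest, so for these markers, Ttr included, a change in level and the effect of depth cannot be told apart. Of 4 macrophage markers 2 rose at 7 days (Cd68 and Csf1r), and their sum was 134 to 259, 167 to 315 and 459 to 532 in control, 3-day and 7-day livers. All 5 markers of dividing cells rose at 7 days, with a sum of 5.02 to 20.5, 16.2 to 112 and 107 to 169 in control, 3-day and 7-day livers. Endothelial markers summed to 53.4 to 105, 67.4 to 107 and 144 to 175 in control, 3-day and 7-day livers, with 2 of 5 risen, and neutrophil markers to 17.6 to 27.8, 13.2 to 24.0 and 35.4 to 50.1, with 1 of 4 risen. Of 5 cholangiocyte markers 1 rose (Krt7), of 5 T cell markers 1 (Cd4), of 4 B cell markers 0 and of 5 stellate cell markers 0. T cell markers summed to 1.13 to 4.25, 1.52 to 4.10 and 3.76 to 6.77 in control, 3-day and 7-day livers, with Cd3e, Cd3g and Cd8a at 0 in control 4. Cholangiocyte markers summed to 37.5 to 48.97, 40.5 to 84.5 and 61.5 to 111 in control, 3-day and 7-day livers, with Krt7 and Epcam at 0 in control 4. B cell markers summed to 3.75 to 8.60, 1.37 to 3.34 and 4.64 to 12.4 in the same order, with Cd79a and Cd79b at 0 in 3-day liver 1, and stellate cell markers to 47.3 to 94.6, 40.2 to 80.4 and 36.7 to 43.0. The part of these cells in the levels of the members was not tested.

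Over the 11 libraries the tested genes whose log2 levels were most like those of Pmaip1, the member with the largest limma t at 7 days, were Btk, Zfp90, Als2cl, Gng2 and S1pr2. Their Pearson correlations with Pmaip1 were 0.984, 0.984, 0.983, 0.983 and 0.983. Each pattern is that of 2 levels, a low one shared by controls and 3-day livers and a high one at 7 days, and the points share their libraries and groups. Btk, a kinase of B cells and myeloid cells, had 0.306 to 1.43, 0.718 to 1.14 and 7.46 to 8.21 eRPKM in control, 3-day and 7-day livers.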

How the data were processed

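Whole-liver RNA was sequenced from 11 libraries (4 controls, 4 livers after 3 days and 3 after 7 days of induction). The authors aligned reads without strand information to mm9 with TopHat 2.0.8 (study's methods), and the submitters' processing notes also name featureCounts 1.4.5-p1 and SAMtools. Gene annotation and the treatment of duplicate reads are not given in the sources used here. The deposited values are eRPKM, a form of RPKM, reads per kilobase of exon scaled by the authors to each library. Columns of the authors' own DESeq2 comparison (7 days against control: mean normalised signal, log2 fold change, p-value after adjustment) were deposited beside them and not used. The authors' DESeq2 takes counts, and the deposited values are not counts, so limma on log2 eRPKM was planned as the main test. It was kept after reads had been recovered from the values, and those reads were used in an alternative fit.

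Low values step by 1 read, from which the reads behind all 177553 positive values were recovered (100% whole to within 0.1), and with them the depth, 1251396 to 5941357 reads on genes. The 14244 genes (of 20893) that reached 0.5 eRPKM in 3 or more libraries were fitted with limma 3.58.1 (R 4.3.3, lmFit and eBayes with trend) on log2(eRPKM + 0.5), all 3 groups in one fit, with Benjamini-Hochberg adjustment over all of them. The study's thresholds made a call: adjusted p below 0.01 together with a log2 fold change beyond 0.5 in size. The fit was tried on simulated reads whose means followed depth and whose dispersion was set alike for all genes. That simulation cannot show how the fit behaves for transcripts whose reads hardly follow depth. GENCODE M1 on NCBIM37 (mm9) gave positions and overlapping exons, and RefSeq (GRCm38.p6) the promoters. Other steps ran in Python 3.11.15 with pandas 2.3.3, and figures in matplotlib 3.10.9.

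The fit was repeated with other pseudocounts (0.1, 1), filters (none, or mean 1 eRPKM) and scalings (size factors, quantiles), with limma-voom on the recovered reads, on the compared groups alone, with the replicate number as a block, with the suffix MF or log2 reads as covariate, in female libraries, at the looser threshold of adjusted p 0.05, and leaving out each library. Members and lists were chosen with earlier results of these data known. Named genes were the members, the other family genes, the called gene with the largest rise and the largest fall at 7 days in each list, and the 5 genes most like the member with the largest limma t. Other pathway genes are marked where named, and marker genes come from fixed lists. The macrophage marker Adgre1 (Emr1) and the neutrophil marker Ly6g did not match the table.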

Additional observations from a re-analysis of the deposited data

Results flagged for a closer look

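The change at 7 days differed from that at 3 days, by the limma test of 7-day against 3-day livers, for 5 members. The difference on the log2(eRPKM + 0.5) scale was 2.96 for Pmaip1, 1.90 for Bcl2, 1.41 for Bak1, 1.36 for Bax and 1.30 for Bcl2l1. In 46 groups of 4 livers, over the members and the other family genes, Dixon's test picked out 2 livers, and chance gives about 1 in 20. They were 3-day liver 1, the lowest for Bcl2a1a (gap over range 0.985, 0 reads against 1 in each of the others), and control liver 2, the highest for Bcl2l10 (1, 1 read against 0 in each of the others).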

How the results depend on the processing

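Over 33 results for single genes, 724 values under the alternatives kept their direction and side of the threshold, 40 fell below it, 12 passed it and 16 changed sign. The looser threshold was counted by its own rule of adjusted p under 0.05. Some alternatives cannot change the log2 fold change, so its direction was fixed. They include the looser threshold, other filters, the compared groups alone and a library left out of the group not compared. Of the members called at 7 days, Bcl2, Bax and Pmaip1 kept their call in each alternative. Members called at 7 days against control numbered 6, or 3 with log2 reads as a covariate and 4 to 6 without 1 library (4 without 7-day liver 3). Members called at 7 against 3 days numbered 5, or 3 among female libraries and with log2 reads, and 3 to 5 without 1 library (3 without 7-day liver 3). Over all genes, 3 days against control gave 6 calls, or 3 with no filter, 12 with size factors, 1 with limma-voom, 0 with the 2 groups only, 3 with the replicate block, 10 with the suffix MF, 1 with log2 reads, 41 at the looser threshold (adjusted p 0.05, no fold limit), and 0 to 54 without 1 library (54 without 3-day liver 1). At 7 days against control there were 3383, or 2128 among female libraries, 1676 with log2 reads, 5390 at the looser threshold and 2057 to 3684 without 1 library (2239, 2222 and 2057 without 7-day livers 1, 2 and 3). At 7 against 3 days there were 2753, or 1424, 1679 and 5085 in the same order, and 1412 to 3683 without 1 library (1628, 1501 and 1412 without those livers). Fewer samples enter the female and leave-out fits. For the rest the cause was not tested. Sign changes were among values not past the threshold. At 3 days Bak1 (0.05) went to -0.0058 with log2 reads and ranged from -0.11 to 0.29 without 1 library, negative without control 3, 3-day liver 2 or 3-day liver 3. Bcl2l11 (-0.08) went to 0.0021 among female libraries and ranged from -0.37 to 0.062 without 1 library, positive without control 1, control 2, 3-day liver 1 or 3-day liver 2. Among female libraries Pmaip1 went to -0.24 and Bcl2l12 to -0.17, and Bcl2l12 (0.18) ranged from -0.012 to 0.30 without 1 library, negative without control 4. At 7 against 3 days Mcl1 went to -0.069 with size factors, and Bid to -0.12 with size factors, -0.30 with quantile normalization and -0.19 with log2 reads. Between livers of the same replicate number, deviations from the group mean correlated at -0.222 to 0.269, and between other livers of different groups at -0.275 to 0.238. Whether livers of the same number share a batch was not tested. With the replicate block 6 members were called at 7 days against control, with Mcl1 lost (0.61, adjusted p = 0.0188) and Bbc3 gained (1.32, adjusted p = 0.00620), and 4 at 7 against 3 days, with 2720 and 1981 genes called in all. Depth limits Pmaip1, with 1 read in control 4, and Bcl2, with 10.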
